A study of Mus musculus with 9 samples.

Results

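The cholesterol synthesis genes described here are 7 mouse genes taken by symbol from a list fixed by name: Hmgcs1, Idi1, Sqle, Cyp51, Msmo1 and Sc5d, which encode enzymes, and Insig1, which encodes a sterol sensor. All 7 were found among the 38911 genes of the table, and 6 of the 7 had counts in every library. The table holds 9 RNA sequencing libraries of hippocampus from adult BALB/c mice kept free of specific pathogens, with 3 libraries a group. SAE libraries carry the label of cecal ligation and puncture alone, a surgical model of abdominal sepsis in which gut contents leak into the abdomen. CCLF libraries carry the label of the same operation with flavonoids of Cuscuta chinensis at 200 mg/kg, and CTL libraries carry the label of a sham operation. SAE was compared with CTL, and CCLF values are given as a description with no test.

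Neurons and glia of the adult brain make their own cholesterol, because lipoproteins of the blood do not cross the intact blood-brain barrier. The pathway runs from acetyl-CoA through mevalonate and isoprenoids to squalene, which is oxidised, closed into lanosterol and trimmed step by step to cholesterol. SREBP-2, the product of Srebf2, is the transcription factor that turns these genes on. When membrane sterol is low, the escort protein SCAP carries it to the Golgi for cleavage, and when sterol is high, INSIG proteins hold SCAP in the endoplasmic reticulum.

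Inflammation genes of the SAE and CTL libraries went against their labels, so every direction below is one between libraries as labelled. Lcn2, an acute-phase gene that rises in inflamed brain, had 6 to 14 counts in the libraries labelled SAE, 4524 to 9635 in those labelled CCLF and 13246 to 14822 in those labelled CTL. Icam1, an adhesion gene of inflamed vessels, had 34 to 48 counts with the SAE label, 346 to 740 with the CCLF label and 1135 to 1498 with the CTL label. Of 6 genes listed to check the labels, 5 were tested and all 5 were lower in SAE-labelled than in CTL-labelled libraries: Lcn2, Icam1, the chemokine genes Cxcl10 and Ccl2, and Gfap. Saa3 had 0 or 1 count per library and was not tested. Library totals ran from 4626519 to 4895474 counts. Across all genes, 3912 of 8213 tested genes (47.6%) passed the test used throughout, edgeR's quasi-likelihood F test at a Benjamini-Hochberg adjusted p under 0.05, with 23.7% of tested genes called higher and 23.9% called lower.

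The promoters of genes in this pathway carry the binding sites through which SREBP-2 and its partner NF-Y act, and the sequences are shown because the members share this regulator. The motifs were named after the values were seen, and a link between motifs and folds was not tested. RefSeq start sites on GRCm38.p6 were in the promoter table for 6 of the 7 members, and the entry for Sqle was missing. Each line gives the 250 bases before the start of transcription, 5′ to 3′ on the gene's own strand. Capitals mark CCAAT, the NF-Y box, on either strand (ATTGG on the other), and TCACNNCA, a loose form of the sterol regulatory element, on either strand (TGNNGTGA on the other). The first 3 genes were called higher in SAE-labelled libraries, and the last 2 were not called. Hmgcs1, which had too few counts to be tested, was read but is not shown.
Sc5d: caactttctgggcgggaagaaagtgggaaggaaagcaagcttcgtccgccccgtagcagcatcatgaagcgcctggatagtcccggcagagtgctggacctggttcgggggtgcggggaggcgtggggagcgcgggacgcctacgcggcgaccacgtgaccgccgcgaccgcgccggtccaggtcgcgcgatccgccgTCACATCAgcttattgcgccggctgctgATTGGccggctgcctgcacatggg
Msmo1: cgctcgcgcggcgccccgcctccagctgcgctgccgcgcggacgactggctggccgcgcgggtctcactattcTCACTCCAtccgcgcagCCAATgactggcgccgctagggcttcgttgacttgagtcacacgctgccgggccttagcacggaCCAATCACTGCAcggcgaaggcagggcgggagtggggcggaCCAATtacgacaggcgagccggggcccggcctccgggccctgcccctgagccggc
Cyp51: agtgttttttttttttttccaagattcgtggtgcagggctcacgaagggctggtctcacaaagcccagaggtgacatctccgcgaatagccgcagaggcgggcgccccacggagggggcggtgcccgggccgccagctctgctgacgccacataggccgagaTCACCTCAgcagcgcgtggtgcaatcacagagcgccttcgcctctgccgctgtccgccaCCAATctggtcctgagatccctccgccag
Idi1: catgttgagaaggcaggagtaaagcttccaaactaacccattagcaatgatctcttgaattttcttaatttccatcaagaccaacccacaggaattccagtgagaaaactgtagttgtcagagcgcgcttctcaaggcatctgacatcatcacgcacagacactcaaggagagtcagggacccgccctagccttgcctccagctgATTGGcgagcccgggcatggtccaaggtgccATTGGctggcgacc
Insig1: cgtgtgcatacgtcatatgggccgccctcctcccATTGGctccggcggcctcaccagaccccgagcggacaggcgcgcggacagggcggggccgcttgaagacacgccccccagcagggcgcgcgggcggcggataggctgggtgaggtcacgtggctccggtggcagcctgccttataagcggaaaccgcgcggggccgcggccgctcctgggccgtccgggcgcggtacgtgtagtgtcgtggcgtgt

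These windows lie at chr9:42264301-42264550 on the minus strand for Sc5d, chr8:64733579-64733828 on the minus strand for Msmo1, chr5:4104698-4104947 on the minus strand for Cyp51, chr13:8885356-8885605 on the plus strand for Idi1 and chr5:28071162-28071411 on the plus strand for Insig1. CCAAT was present in all 6 promoters that could be read, and in 33.8% of 32851 promoter windows of the same length. Msmo1 and Hmgcs1 had 3 copies each, Idi1 had 2, and Sc5d, Cyp51 and Insig1 had 1. TCACNNCA was present in Sc5d, Msmo1, Cyp51 and Hmgcs1, and in 11.4% of all windows. One copy in Msmo1 shares its first base with the end of a CCAAT box. The stricter form TCACNCCAC, whose matches also match the loose form, was found in Hmgcs1 alone among the members, starting 137 bases before the start site, and in 1.05% of all windows. Idi1 and Insig1 had neither sterol form in the window. A match describes the letters and not binding.

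Of the 6 members that could be tested, 4 were higher in SAE-labelled libraries, 0 were lower and 2 were not called. Sc5d rose most, to 2.31 times its level in CTL-labelled libraries, followed by Sqle (1.46 times), Msmo1 (1.38 times) and Cyp51 (1.16 times). Idi1 and Insig1 did not pass the test, and Hmgcs1 had too few counts to be tested. The share of all tested genes called higher was 23.7%, and 25.0% among those with a single RefSeq transcript. The median log2 fold of the 6 members was 0.34, beside 0.0049 over all tested genes. The members were chosen with earlier results of these data known, so these comparisons with all genes are a description. In bulk tissue, fewer cells of a type and less RNA per cell cannot be told apart, so each fold is one of RNA per library. The plot of CPM, counts scaled to the size of each library, shows these values library by library.

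**Figure D1:**
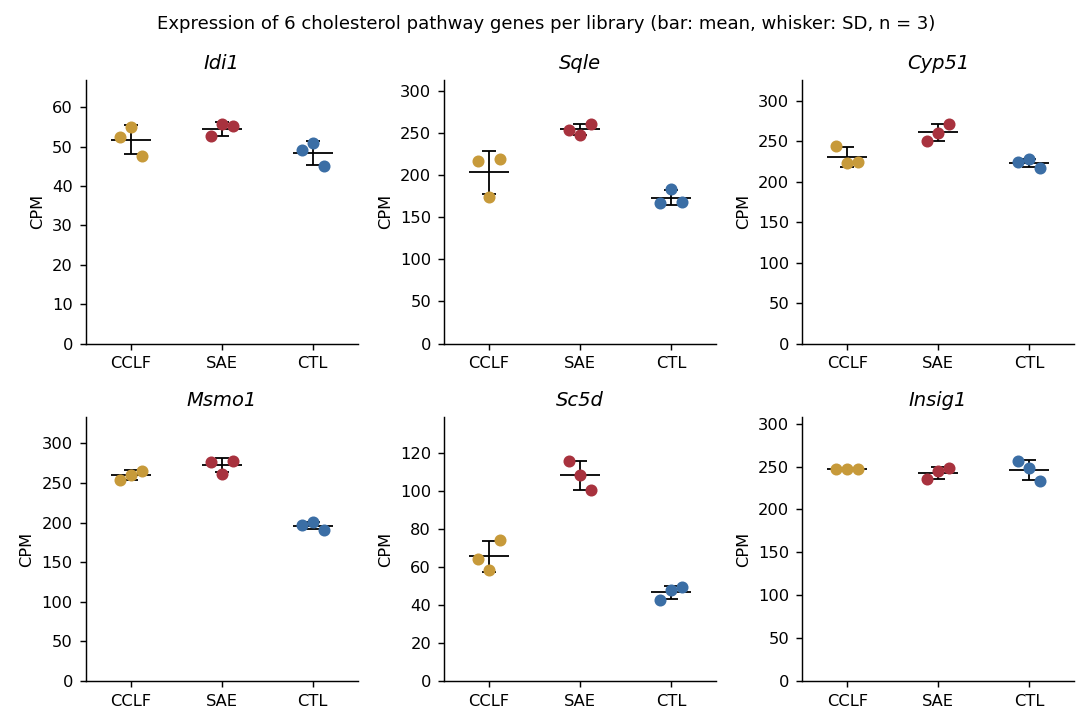
CPM of 6 members in each library, grouped by label (CCLF, SAE, CTL), with points for libraries, bars for means and whiskers for SD (n = 3). SAE libraries stood above CTL libraries for Idi1, Sqle, Cyp51, Msmo1 and Sc5d, and Sc5d ranged from 101 to 116 CPM with the SAE label and from 42.9 to 49.3 CPM with the CTL label.

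Early steps of the pathway were sparsely measured. Hmgcs1 encodes the cytosolic synthase that makes HMG-CoA from acetoacetyl-CoA and acetyl-CoA. It had 2 counts in one SAE-labelled library and 0 in the other 8 libraries, so no fold is given. RefSeq lists 3 transcripts of Hmgcs1, and those 2 counts were on a predicted one. The number of listed transcripts went with the counts across coding genes: 43.7% of 7993 genes with 1 transcript averaged at least 10 counts, as did 22.4% of 13907 genes with several. The part of this in the low counts of Hmgcs1 was not tested.

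Idi1 encodes the isomerase that turns isopentenyl into dimethylallyl diphosphate, the starter unit of isoprenoid chains. It had 250, 262 and 268 counts in SAE-labelled libraries, 249, 261 and 226 in CCLF-labelled libraries, and 226, 246 and 218 in CTL-labelled libraries. On the CPM scale the SAE-labelled libraries (52.6 to 55.8) lay above the CTL-labelled ones (45.2 to 51.0) without overlap, by a narrow margin. The log2 fold was 0.16 ± 0.10 (approximate standard error, SE) with a 95% interval of −0.042 to 0.36, and edgeR's quasi-likelihood test gave an adjusted p of 0.186. Its neighbouring paralogue Idi2 had 0 or 1 count per library, and how reads shared between the pair were assigned is not known.

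Sqle encodes squalene epoxidase, which adds oxygen to squalene and is a rate-limiting enzyme of the pathway. Its counts were 1205, 1161 and 1267 in SAE-labelled libraries, 1025, 822 and 1038 in CCLF-labelled libraries, and 768, 886 and 811 in CTL-labelled libraries. Every SAE-labelled library exceeded every other library, and CCLF-labelled replicate 2 fell within the CTL range on the CPM scale (174 CPM, against 167 to 184 CPM). Mean expression was 254 ± 6.62 CPM with the SAE label and 173 ± 9.18 CPM with the CTL label (SD, n = 3 each). The log2 fold was 0.54 ± 0.06 (adjusted p = 2.3e-08, edgeR's quasi-likelihood test).

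Cyp51 encodes lanosterol 14-alpha-demethylase, which removes the first of the extra methyl groups of lanosterol. It had 1190, 1223 and 1320 counts in SAE-labelled libraries, 1158, 1056 and 1060 in CCLF-labelled libraries, and 1028, 1100 and 1048 in CTL-labelled libraries. The SAE-labelled libraries stood above all others, and 2 CCLF-labelled libraries lay inside the CTL range on the CPM scale. Means were 261 ± 10.6 CPM with the SAE label and 223 ± 5.39 CPM with the CTL label (SD, n = 3 each). The log2 fold, 0.22 ± 0.05, was the smallest of those called (adjusted p = 0.00167, edgeR's quasi-likelihood test).

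Msmo1 encodes the sterol C4-methyl oxidase, which acts on the methyl groups that remain after Cyp51. Its counts were 1317, 1229 and 1350 in SAE-labelled libraries, 1204, 1235 and 1259 in CCLF-labelled libraries, and 904, 969 and 923 in CTL-labelled libraries. The CCLF-labelled libraries were close to the SAE-labelled ones and overlapped with them (254 to 266 CPM, against 262 to 278 CPM), and both sets lay above the CTL-labelled libraries (191 to 201 CPM). The log2 fold of SAE over CTL was 0.46 ± 0.05 (adjusted p = 1.34e-07, edgeR's quasi-likelihood test).

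Sc5d encodes lathosterol 5-desaturase, which makes 7-dehydrocholesterol late in the pathway. It had 551, 510 and 490 counts in SAE-labelled libraries, 305, 277 and 352 in CCLF-labelled libraries, and 197, 231 and 238 in CTL-labelled libraries. The groups did not overlap on the CPM scale, with CCLF-labelled libraries (58.5 to 74.3 CPM) between the others. Sc5d averaged 108.5 ± 7.58 CPM with the SAE label and 46.7 ± 3.37 CPM with the CTL label (SD, n = 3 each), a log2 fold of 1.21 ± 0.09 (adjusted p = 4.61e-11, edgeR's quasi-likelihood test). Of 8213 tested genes, 429 had a higher fold than Sc5d. RefSeq lists 2 transcripts of Sc5d, and all of its 3151 counts were on a predicted one, with 0 on the curated one, so its fold may not stand for the whole gene.

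Insig1 encodes the protein of the endoplasmic reticulum that retains SCAP when sterol is high, and it is itself a target gene of SREBP. Its counts were 1117, 1151 and 1206 in SAE-labelled libraries, 1170, 1173 and 1173 in CCLF-labelled libraries, and 1178, 1199 and 1126 in CTL-labelled libraries. The SAE and CTL ranges overlapped, at 235 to 248 CPM and 233 to 256 CPM. The log2 fold was −0.029 ± 0.05, with a 95% interval of −0.14 to 0.084 (adjusted p = 0.696, edgeR's quasi-likelihood test). That interval lies below the log2 folds of Sqle, Msmo1, Cyp51 and Sc5d, although the difference between genes was not tested.

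Summed over the 5 enzyme genes with counts, expression was 935 to 966 CPM in SAE-labelled libraries, 771 to 832 CPM in CCLF-labelled libraries and 671 to 711 CPM in CTL-labelled libraries. The 3 ranges did not overlap. Between SAE and CTL, 5 of the 6 tested members did not overlap, all with SAE higher, while 55.7% of all tested genes did not overlap and 28.5% did so with SAE higher. CCLF-labelled libraries lay above every CTL-labelled library for Sc5d and Msmo1, and below every SAE-labelled library for Sc5d, Sqle and Cyp51. The share of all tested genes with such separations was not counted for CCLF, so these do not set the members apart. The mean log2 difference of CCLF-labelled libraries from the CTL mean was 0.49 for Sc5d, 0.41 for Msmo1, 0.22 for Sqle, 0.095 for Idi1, 0.046 for Cyp51 and 0.009 for Insig1.

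Levels can be set beside each other between genes only per length, which was possible for the 5 members with a single RefSeq transcript and a linked transcript length. Msmo1 was the most abundant, at 133 CPM per kilobase with the SAE label and 96.0 with the CTL label. Sqle had 92.1 and Insig1 90.0 CPM per kilobase with the SAE label, while with the CTL label Sqle had 62.7 and Insig1 91.2. Cyp51 followed with 66.4 with the SAE label and 56.7 with the CTL label, and Idi1 was the lowest, at 18.0 with the SAE label and 16.0 with the CTL label.

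The rest of the pathway was read from lists of 21 further genes, of which 9 were tested. Among them 2 were higher, 0 were lower and 7 were not called in SAE-labelled libraries (median log2 fold 0.17). Over all tested genes 23.7% were called higher and 23.9% lower, and the list counts below stand beside the same shares. Nsdhl, a dehydrogenase that acts with Msmo1 in removing the C4 methyl groups, rose (log2 fold 0.44 ± 0.10, adjusted p = 0.00107, edgeR's quasi-likelihood test). So did Srebf2, from which SREBP-2 is made, at 89.4 ± 2.48 CPM with the SAE label and 63.1 ± 0.668 CPM with the CTL label (log2 fold 0.49 ± 0.08, adjusted p = 2.08e-05).

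Steps without a call were spread over the pathway. Acat2 (log2 fold −0.027), Pmvk (0.24) and Fdft1 (0.038) precede squalene or form it. Tm7sf2 (0.17) and Ebp (0.17) act after lanosterol. Insig2 (0.34) and the protease gene Mbtps2 (0.14), whose product cleaves SREBP, belong to sterol sensing. The remaining 12 had too few counts for the filter and were not tested: Mvk, Mvd, Fdps and Ggps1 of the early steps, Lss, Lbr, Hsd17b7 and Dhcr7 of the later ones, and Srebf1, Scap, Mbtps1 and Rnf139 of sterol sensing. Of these, Mbtps1, the gene of the other protease that cleaves SREBP, had 2, 2 and 6 counts in SAE-labelled libraries and 12, 8 and 12 in CTL-labelled libraries. It was called lower under 4 of the 6 alternatives that kept it (log2 fold −1.66 with no filter, edgeR adjusted p = 0.0257). From squalene to cholesterol, 5 of 8 tested genes were higher and 0 lower, with members counted. Without the members, 1 of 4 tested genes was higher. In the early mevalonate steps 0 of 3 tested genes were called, Idi1 among them.

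**Figure D2:**
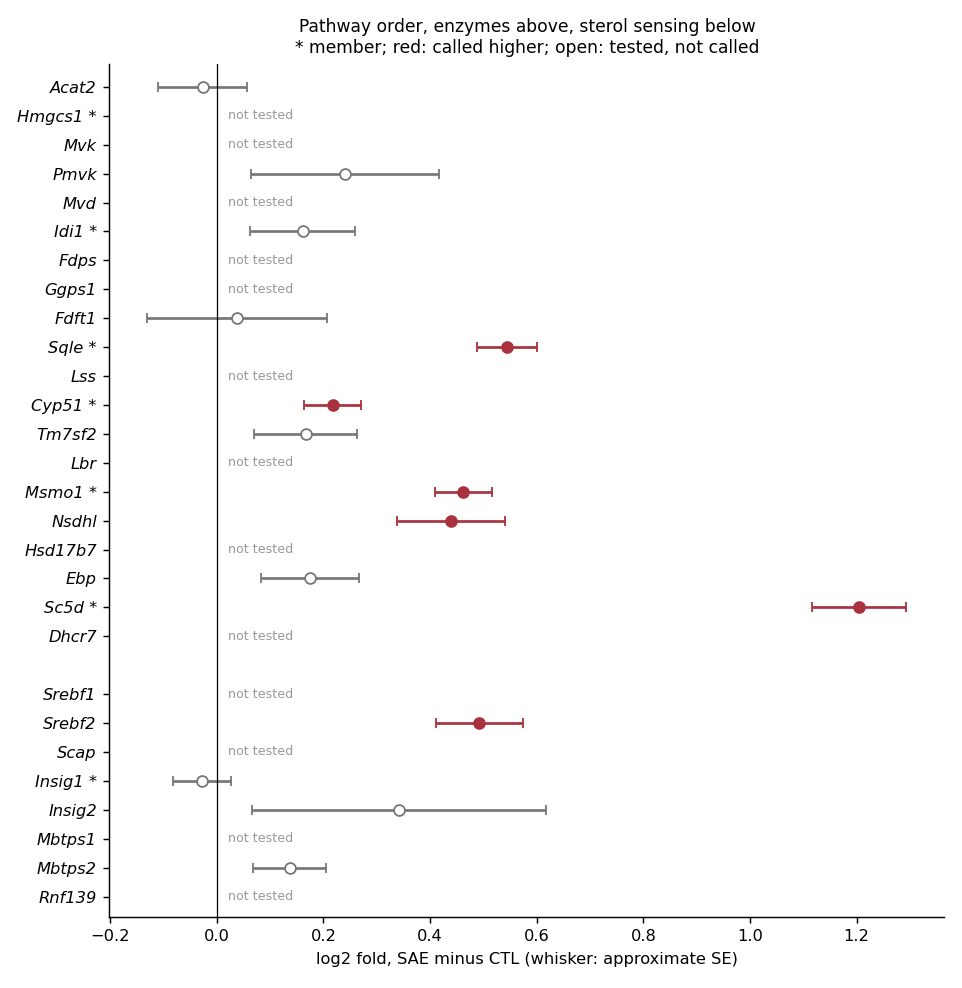
Log2 fold of SAE over CTL libraries with approximate SE for each pathway gene in order of the steps, then for sterol sensing genes, with members starred. Filled red points passed the test as higher and open points did not pass. Sc5d (1.21) and Sqle (0.54) had the highest folds among the genes shown, and 0 of these genes were called lower.

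Whether a pathway gene could be tested went with its number of RefSeq transcripts. All 10 pathway and sensing genes with a single transcript were tested, with means of 245 to 1166 counts. Of the 18 genes with several transcripts, 5 were tested and 13 were not, and those 13 averaged 0 to 6 counts. The measured members are thus mainly genes with a single transcript, which 5 of the 7 are.

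**Figure D3:**
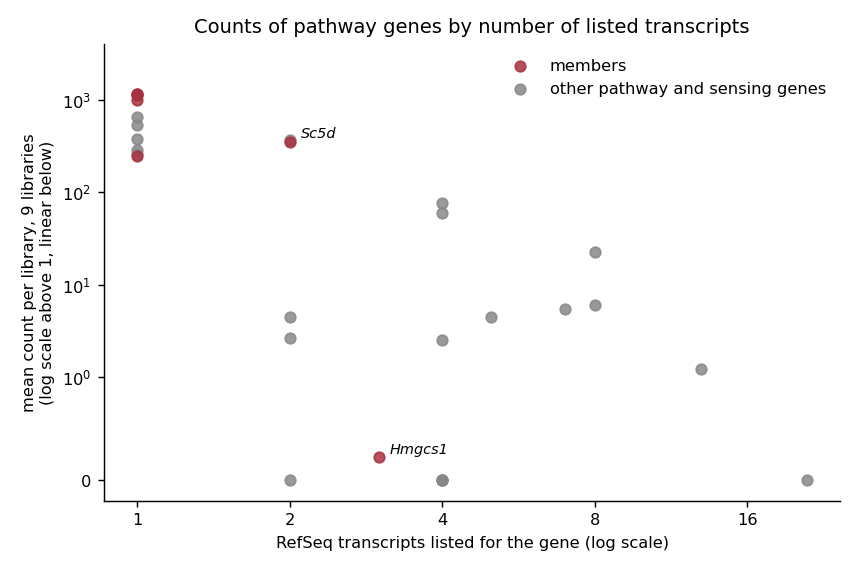
Mean count over 9 libraries (log scale above 1, linear below) against the number of RefSeq transcripts of each pathway or sensing gene (log scale), with members in red. Genes with a single transcript had means of 245 to 1166 counts, and Hmgcs1, with 3 transcripts, averaged 0.22.

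Fatty acid synthesis genes, which SREBP proteins also drive, were set beside the members. Of 14 genes 7 were tested, and 6 of these were higher and 0 lower in SAE-labelled libraries (median log2 fold 0.48). The count of 6 fell to 5 under some alternatives, among them the DESeq2 Wald test and leaving out CTL replicate 1 or 2. Fads2, a desaturase gene of polyunsaturated fatty acids, had 921 ± 29.8 CPM with the SAE label and 489 ± 23.0 CPM with the CTL label (SD, n = 3 each; log2 fold 0.90 ± 0.04). Elovl6, which lengthens fatty acids, had a log2 fold of 0.85 ± 0.06. The stearoyl-CoA desaturase genes Scd1 (0.48 ± 0.04) and Scd2 (0.43 ± 0.03) rose by amounts near that of Msmo1.

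Cholesterol uptake and efflux genes were mixed. Of 5 tested uptake and binding genes, 1 was higher and 2 were lower (median log2 fold 0.0052). Npc1, which moves cholesterol out of lysosomes, rose (0.68 ± 0.14), and the lipoprotein receptor gene Lrp1 fell (−0.20 ± 0.03). Lrp8, another receptor gene of this family, fell (−0.52 ± 0.19, edgeR adjusted p = 0.0257), a call that ended with the DESeq2 Wald test (adjusted p = 0.0718) and without CTL replicate 2, SAE replicate 2 or SAE replicate 3 (edgeR adjusted p 0.104 to 0.130). Mylip, whose product targets lipoprotein receptors for breakdown, had a log2 fold of 0.18 ± 0.09 and was not called. Of 6 tested efflux and turnover genes, 1 was higher and 3 were lower (median −0.023). Ch25h, whose enzyme makes 25-hydroxycholesterol and is induced by interferon, had 2.60 ± 1.31 CPM with the SAE label, 28.0 ± 13.4 CPM with the CCLF label and 58.9 ± 9.98 CPM with the CTL label (log2 fold −4.50 ± 0.23, adjusted p = 1.34e-11). Lcat, which esterifies cholesterol on lipoproteins, rose (0.72 ± 0.08), while the sterol exporter gene Abcg1 (−0.19 ± 0.05) and Apoe (−0.86 ± 0.21) fell. Apoe averaged 51.8 counts per library here and has 5 RefSeq transcripts.

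Markers of cells that make much cholesterol moved between the same libraries. Of 8 tested oligodendrocyte markers (14 listed), 5 were higher and 2 lower in SAE-labelled libraries, with Mog at 1.34 ± 0.09, Ermn at 1.15 ± 0.07, Cnp at 1.10 ± 0.09 and Opalin at 1.04 ± 0.09 on the log2 scale. The 2 lower ones were Hapln2 (−1.39 ± 0.13) and Trf (−0.18 ± 0.04). The summed level of the whole list was 2422 to 2754 CPM with the SAE label and 2216 to 2336 CPM with the CTL label. Trf was the largest part of that sum, at 1144 CPM with the SAE label and 1288 CPM with the CTL label on average. Among the defining markers, Gjb1 was at 0 in every library, and Mbp, which has 17 RefSeq transcripts, averaged 2.44 counts. Of 7 tested precursor markers (10 listed), 6 were higher and 1 lower, and the smallest p-values were those of Sox10 (log2 fold 0.63 ± 0.06), C1ql1 (1.51 ± 0.18), Gpr17 (1.80 ± 0.33) and Olig1 (1.31 ± 0.12). The lower one was Bcas1 (−1.01 ± 0.33), whose groups overlapped and whose call was lost without CTL replicate 1 or 2 or any one SAE library (edgeR adjusted p 0.0659 to 0.102). Their summed level was 807 to 844 CPM with the SAE label and 377 to 485 CPM with the CTL label. Lhfpl3 was at 0 in every library.

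Astrocytes, the main source of cholesterol for neurons, had 2 of 8 tested markers higher and 5 lower. Gja1, their gap junction gene, was higher (1.11 ± 0.05), and Gfap (−2.80 ± 0.21), Slc1a2 (−0.71 ± 0.14) and Slc1a3 (−0.21 ± 0.03) were lower. The other higher one, Fgfr3 (0.56 ± 0.22, edgeR adjusted p = 0.0364), lost its call under 6 of 15 alternatives, among them leaving out CTL replicate 2, SAE replicate 1 or SAE replicate 2 (adjusted p 0.0535 to 0.178 over the 6). The summed level of the 12 listed markers was 3418 to 3480 CPM with the SAE label and 3266 to 3533 CPM with the CTL label, and Slc4a4 was at 0 in every library. Most of that sum was Slc1a3 and Gja1, which moved in opposite directions. Slc1a3 averaged 2556 CPM with the SAE label and 2927 CPM with the CTL label, and Gja1 849 and 390 CPM. Of 9 tested neuron markers 5 were higher and 0 lower, among them Slc17a7 (0.16 ± 0.03), Nefl (0.27 ± 0.04), Nefm (0.41 ± 0.05) and Stmn2 (0.14 ± 0.04). Their summed level was 13047 to 13411 CPM with the SAE label and 11352 to 11819 CPM with the CTL label, and Camk2a, which has 5 RefSeq transcripts, was at 0 in every library. The part of these markers in the folds of the members was not tested.

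**Figure D4:**
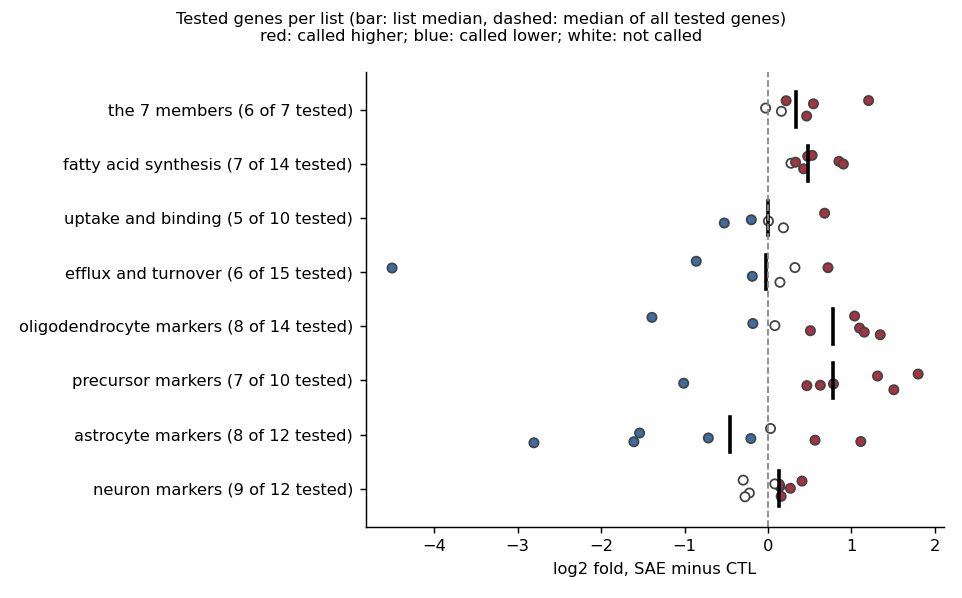
Log2 fold of SAE over CTL libraries for each tested gene, by list, with list medians as bars and the median of all tested genes (0.0049) dashed. The members (median 0.34) and the fatty acid synthesis genes (median 0.48) lay mostly right of that line, while astrocyte markers (median −0.46) were spread to both sides.

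Outside the lists, the genes nearest in pattern to the mean of the 6 members were Kctd12, Septin5, Prss12, Tmem74 and Cpne4. Likeness was the root mean square difference of centred log2 CPM over the 9 libraries, among 4598 tested genes of at least 10 CPM on average, and it was 0.039 for Kctd12 and 0.054 for Cpne4. For comparison, the members themselves lay 0.088 (Sqle) to 0.33 (Sc5d) from their own mean. Kctd12, an auxiliary subunit of GABA-B receptors, had 922 ± 30.0 CPM with the SAE label, 813 ± 34.4 CPM with the CCLF label and 702 ± 2.45 CPM with the CTL label (SD, n = 3 each). All but Cpne4 (edgeR adjusted p = 0.0525) were called higher in SAE-labelled libraries, with log2 folds of 0.35 to 0.41. These genes were picked by their pattern over the same libraries, so the direction and size of their folds followed from the choice.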

How the data were processed

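The authors' deposited table gives whole-number counts per RefSeq transcript for 9 hippocampus libraries. Fastp and Salmon appear in the submitters' processing notes, while the sources used here state no version, setting, index or genome build. All 120312 transcripts were matched to gene symbols with RefSeq's table for GRCm38.p6 and summed to 38911 genes. The filterByExpr function of edgeR left 8213 genes, libraries were scaled by TMM (edgeR's trimmed mean), and the model was fitted on the 3 SAE and 3 CTL libraries with edgeR's robust quasi-likelihood F test and Benjamini-Hochberg adjustment over all tested genes. Calls were made below an adjusted p of 0.05. The approximate SE is the absolute log2 fold over the root of its F statistic. CPM used factors of 0.986 to 1.017 over the 9 libraries. CCLF libraries were left out of the fit, since they are shown as a description. Series text counts 9 mice in 3 groups of 3, and the labels call the replicates biological without saying more, so p-values measure the spread between these libraries.

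The members, lists and tests were chosen with earlier results of these data known. All 7 members, all pathway and sensing genes, the genes that check the labels and the 5 genes nearest in pattern are named. So are up to 4 genes with the smallest p of every other list. Gjb1, Mbp, Hapln2, Trf, Lhfpl3, Slc4a4, Camk2a, Idi2, Bcas1, Fgfr3, Abcg4 and Scarb1 were named after their values were seen, as were the promoter motifs. Some listed genes are not reported here and stand in no list count. All replicate pairs differed by more than counting noise (chi-square per degree of freedom 1.85 to 5.86). Transcript lengths came from GENCODE M21. Alternatives were DESeq2 size factors, limma-voom, upper-quartile factors, the Wald test of DESeq2, no filter, 1 CPM in 3 libraries, all 9 libraries, a replicate block, the most abundant transcript alone, and each library left out. The fit was run on simulated data whose changes were larger than the folds of Sqle, Msmo1 and Cyp51, so changes of that size were not covered. Software was Python 3.11.15 (pandas 2.3.3, numpy 2.4.6, matplotlib 3.10.9) and R 4.3.3 with DESeq2 1.42.0, limma 3.58.1 and edgeR 4.0.16.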

Additional observations from a re-analysis of the deposited data

Results flagged for a closer look

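The CCLF libraries entered no test, and 2 members stood above every CTL library in all 3 of them. The share of all tested genes that did so was not counted, so this does not set the members apart. Sc5d averaged 65.7 CPM with the CCLF label, against 46.7 CPM with the CTL label, and Msmo1 averaged 260.2 CPM, against 196 CPM.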

How the results depend on the processing

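Under all 15 alternatives the same number of members, 4, passed the test, and Sc5d, Sqle, Msmo1 and Cyp51 kept their direction and stayed called in each, with log2 folds of 1.15 to 1.26, 0.52 to 0.58, 0.44 to 0.50 and 0.19 to 0.26. Idi1 was called under none (adjusted p 0.101 to 0.455). Insig1, not called under any, changed sign with upper-quartile factors (log2 fold 0.011), and leaving out 1 library gave −0.072 to 0.0052. Among the other uncalled genes, Acat2 changed sign with upper-quartile factors (0.014; −0.11 to 0.052 with 1 library left out) and Fdft1 with the most abundant transcript alone (−0.035; −0.070 to 0.15 with 1 library left out). The cause of these sign changes was not tested. Of 660 alternative values of 44 other named list genes with a test, 627 kept direction and call, 20 lost the call, 7 gained it and 6 changed sign. Hapln2 and Trf are not among these genes. Calls as higher were gained by Ebp and Abcg4 with all 9 libraries (adjusted p 0.0448 and 0.0478), by Mbtps2 and Mylip with upper-quartile factors (0.0405 and 0.0471) and by Pmvk with the most abundant transcript (0.0463), by edgeR's test. Mbtps2 also gained it without SAE replicate 1, and Abcg4 without SAE replicate 3. Of reported list genes the filter removed, Mbtps1 was called lower with no filter, at 1 CPM in 3 libraries, and without CTL replicate 2 or SAE replicate 3 (adjusted p 0.0085 to 0.0257), and Scarb1 was called higher at 1 CPM (0.0493). Ccl2, one of the genes that check the labels, lost its call with no filter (0.0569) and without CTL replicate 1 or any one SAE library. Called genes numbered 3186 to 4318 over the alternatives, and the further pathway genes called 2 to 3. With the replicate block 3892 genes were called. Over all tested genes, same-numbered SAE and CTL libraries hardly deviated together from their group means (r of 0.026, −0.013 and 0.023). That cannot exclude a pairing that acts on few genes, so whether the numbers pair the libraries is not known. Hmgcs1, with 2 counts in all, could not be compared.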
